A study of Homo sapiens with 8 samples.

Results

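The genes described here are 35 genes of amino acid supply that are known as part of the ATF4 response, together with some regulators that ATF4 controls. They were chosen by name. A gene was measured by the probe sets whose annotation gives its symbol alone, and was represented by the probe set with the highest mean over the 8 arrays. Of the 35 genes, 34 had such a probe set (72 probe sets in all), among 19775 genes with a probe set of their own on the array, and GPT2 was not analysed here. Another 5 probe sets shared with a second symbol (of SHMT1, PHGDH and MTHFD1L) were left out.

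The study measured mRNA in prostate cancer cells in which nonsense-mediated mRNA decay (NMD), the pathway that destroys mRNAs with premature stop codons, was inhibited with caffeine. LNCaP was derived from a prostate carcinoma that had spread to a lymph node, and 22Rv1 from a relapsed prostate carcinoma xenograft, so each is a single established line in culture. For each line there were 4 groups of 1 array each, with no repeats. They were cells kept for 4 hours in 10 mM caffeine, untreated cells, cells that after the caffeine step were washed and kept for another 4 hours in 2 µg/ml actinomycin D (a blocker of transcription) with 10 mM caffeine, and cells kept for the same time in actinomycin D alone, in which NMD was released. Both actinomycin D groups of a line, like its caffeine group, had therefore been through caffeine first. The purpose of the design was to separate new synthesis from slowed degradation after NMD inhibition.

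Values are log2 signals from gcRMA, quantile normalized so that the arrays share 1 distribution. A signal thus gives the level of a transcript against the rest of its own array, and fewer cells or less RNA per cell cannot be seen in it. A signal of 4 was the floor for detection. The following differences were computed within each line: accumulation (caffeine over untreated), degradation (actinomycin D with caffeine over actinomycin D without it), loss with caffeine kept (actinomycin D with caffeine over caffeine) and decay (actinomycin D alone over caffeine). Each is the first log2 signal minus the second. The caffeine array and the actinomycin D alone array of a line each enter several of these, so the comparisons are not independent. Within a line a difference rests on 2 arrays and has no test. The treatment response common to both lines was tested with limma over 21453 probe sets, with the lines as the only replicates of a treatment. In both lines, all 7 prostate luminal markers with a probe set of their own were detected (KLK2, KLK3, TMPRSS2, FOLH1, KRT8, KRT18 and HOXB13), and 0 of 7 markers of leukocytes, fibroblasts and endothelium reached 4 on any array.

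ATF4 is a transcription factor that is made when the kinases of the integrated stress response phosphorylate eIF2, for example when amino acids run short. Its mRNA carries upstream open reading frames that hold its translation back in unstressed cells, and such frames can also mark an mRNA for NMD. ATF4 pairs with C/EBP proteins on a composite element of a C/EBP and an ATF site and switches on amino acid transporters, the enzymes that make serine, glycine, asparagine and proline, and factors that adjust the response. In prostate cancer cells several of these transporters also serve growth.

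The element can be read in the promoters of these genes. RefSeq promoters (assembly GRCh38.p14, 250 bases before to 50 after a start) were given for 28 of the 34 genes, with several starts for 12 of them. The letters TGATGNAA, the core of the element, stood on either strand in the promoters of 11 of the 28 genes (39.3%), against 1217 of 27305 genes with a promoter given (4.46%). The full cAMP response element TGACGTCA, which has the same letters on both strands, stood in 0 of the 28 and in 614 of the 27305 (2.25%). The 11 genes are ASNS, MTHFD1L, SLC7A1, SLC3A2, SLC38A1, SLC1A4, SLC1A5, GOT1, CEBPG, BCAT1 and JDP2, and ATF4 regulation is what many of them are known for. A match is a stretch of letters and no evidence of binding. The match lay wholly ahead of the start in 7 of them, and the windows of those that were detected on the arrays are shown, on the strand of the gene, because they let the element be compared with the signals of the same genes. Capitals mark the match, which is on the opposite strand in GOT1.
ASNS: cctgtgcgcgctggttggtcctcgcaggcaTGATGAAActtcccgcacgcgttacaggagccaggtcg
GOT1: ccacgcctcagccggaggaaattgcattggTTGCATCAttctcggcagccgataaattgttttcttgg
JDP2: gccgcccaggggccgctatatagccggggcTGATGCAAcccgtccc
CEBPG: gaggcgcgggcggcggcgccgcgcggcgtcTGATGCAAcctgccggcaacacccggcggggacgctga
SLC1A5: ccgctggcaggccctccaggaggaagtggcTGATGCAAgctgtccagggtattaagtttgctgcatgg
The windows are chr7:97872439-97872506 for ASNS (minus strand), chr10:99430785-99430852 for GOT1 (minus), chr14:75427976-75428021 for JDP2 (plus), chr19:33374041-33374108 for CEBPG (plus) and chr19:46784874-46784941 for SLC1A5 (minus). The match began 68 bases before a RefSeq start in ASNS, 198 in GOT1, 16 in JDP2, 42 in CEBPG and 97 in SLC1A5. In ASNS, JDP2, CEBPG and SLC1A5 the window lay inside the RefSeq span of the gene, so that start is not its outermost one. Of these 5 genes, which share the core, CEBPG alone was past 1 in accumulation, as given with its signals further on. The detected genes with the core had a median accumulation of 0.30 in LNCaP (9 genes) and 0.10 in 22Rv1 (8 genes), against -0.14 (13 genes) and -0.04 (15 genes) for those with a promoter but without it. In each line 1 gene with the core was higher by at least 1, against 1 without it in LNCaP and 2 in 22Rv1. These medians are a description of 2 arrays a line. Copies of the element outside the promoters given were not looked for, so a gene without it here may carry it elsewhere. The detected genes with no promoter given are in neither group. Their medians were 0.27 in LNCaP (5 genes) and 0.01 in 22Rv1 (6 genes).

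The level of the genes was high in untreated cells for most enzymes and for some of the transporters. On single arrays 24 to 28 of the 34 genes reached the floor of 4, and 30 did so on at least 1 array. SHMT1 and MTHFD1L (folate enzymes), SLC6A9 (a glycine transporter) and BCAT1 (a branched-chain aminotransferase) did not on any, and ADM2, a hormone gene, stayed at the floor, between 3.89 and 4.08. For SHMT1 and MTHFD1L this holds for the probe sets that remained once the shared ones were left out. It does not show that these genes are silent. The signal of ASNS, asparagine synthetase and a classical ATF4 target, was 11.14 in LNCaP with caffeine and 10.77 untreated, and 10.00 in 22Rv1 with caffeine and 10.17 untreated. After actinomycin D with caffeine and alone it was 10.85 and 10.94 in LNCaP, and 10.17 and 10.35 in 22Rv1. ASNS was therefore at a high signal on every array and moved by no more than 0.37 in any comparison.

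**Figure D1:**
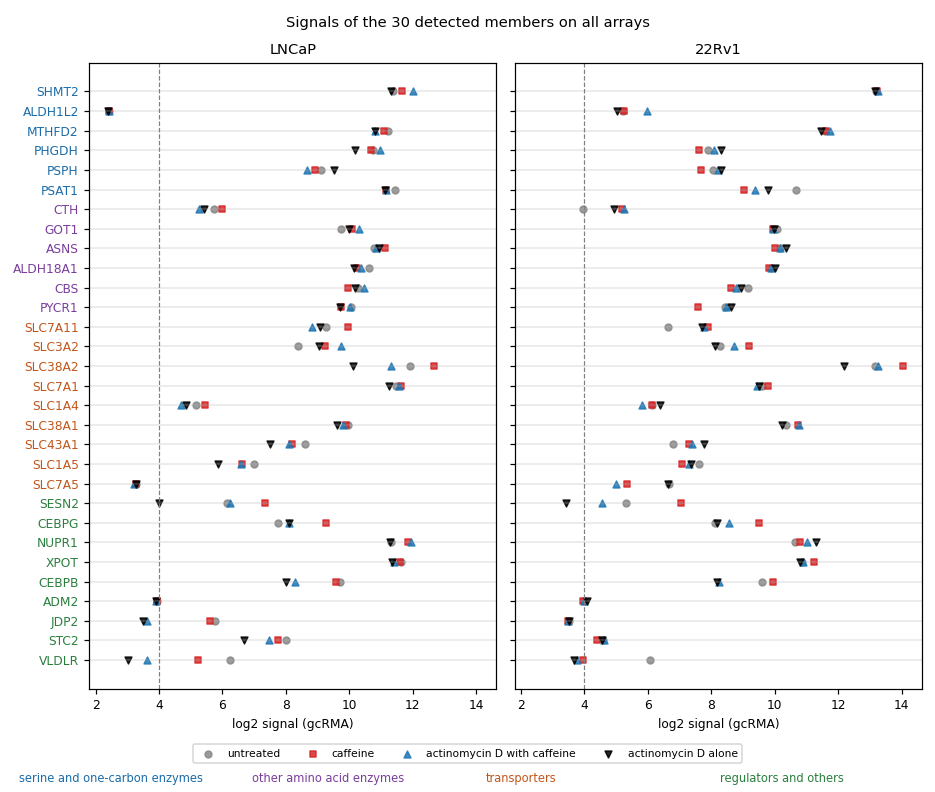
Log2 signals (x axis, gcRMA) of the 30 detected genes in LNCaP (left) and 22Rv1 (right), with 1 point per array, the 4 treatments as symbols, the role of a gene as the colour of its name and the floor of 4 dashed. Most genes keep the 4 symbols of a line close together, while those of SESN2, SLC38A2, CEBPB, CEBPG and VLDLR spread out, and SLC7A5, ALDH1L2 and JDP2 are above the floor in 1 line only.

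Accumulation after caffeine was carried by few of these genes. In LNCaP 2 of 27 detected genes were higher by at least 1 (7.41%) and 0 lower (also 0 higher with each gene's probe sets averaged), against 5.19% higher and 3.70% lower of all detected genes. In 22Rv1 4 of 29 were higher (13.8%) and 3 lower (10.3%), against 8.41% and 6.12% of all detected genes. These shares are near those of all genes given the counts of 2, 4 and 3. The median of the genes was -0.07 in LNCaP and 0.02 in 22Rv1, while that of all detected genes was -0.02 in both. By limma 0 of the 28 genes tested were called in either direction, while 0.0420% of all probe sets were called higher and 0.00466% lower. At an unadjusted p under 0.05, 5 of the genes were higher (SLC7A11, SLC3A2, SLC38A2, SESN2 and CEBPG) and 2 lower (PSAT1 and VLDLR). Of all 21453 probe sets tested, 3794 had such an unadjusted p by limma in either direction, so it is common in this comparison.

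The largest accumulation was that of a pair of regulators. CEBPG encodes a C/EBP protein that pairs with ATF4. Its signal was 9.27 in LNCaP with caffeine and 7.74 untreated, and 9.51 in 22Rv1 with caffeine and 8.13 untreated. The difference of 1.53 in LNCaP was close to that of 1.38 in 22Rv1, and the mean of 1.45 (SE 0.20) had an adjusted p of 0.0691 by limma, the smallest among the genes in this comparison. The other probe set of CEBPG gave 0.47 in LNCaP and 1.41 in 22Rv1. SESN2, a stress sensor that restrains mTORC1 when leucine is scarce, had 7.33 in LNCaP with caffeine and 6.14 untreated, and 7.05 in 22Rv1 with caffeine and 5.31 untreated (adjusted p = 0.136 by limma). Its other probe set gave differences of 0.01 and 0.27, so the accumulation of SESN2 was seen with 1 of its 2 probe sets.

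VLDLR, a lipoprotein receptor, moved the other way. It had 5.24 in LNCaP with caffeine and 6.24 untreated, a difference of -0.999, just short of the cut-off, and 3.95 in 22Rv1 with caffeine and 6.06 untreated, a difference of -2.11 (adjusted p = 0.178 by limma). In 22Rv1 the caffeine signal was under the floor. CEBPB, another partner of ATF4, differed by -0.14 in LNCaP and 0.35 in 22Rv1, and XPOT, an exporter of tRNAs, by -0.02 and 0.38. The stress protein gene NUPR1 differed by 0.53 and 0.15 and STC2, a secreted glycoprotein gene, by -0.27 and -0.21. Of the 22 genes with several probe sets, 10 had probe sets that differed by 1 or more in some comparison, among them XPOT (-0.94 in 22Rv1 with another probe set) and STC2 (-1.38).

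Among the transporters SLC7A11, SLC3A2 and SLC38A2 had the largest mean accumulation. SLC7A11, the cystine-glutamate exchanger, had 9.95 in LNCaP with caffeine and 9.26 untreated, and 7.89 in 22Rv1 with caffeine and 6.63 untreated. SLC3A2, the heavy chain that carries SLC7A11 and SLC7A5 to the membrane, had 9.22 in LNCaP with caffeine and 8.39 untreated, and 9.20 in 22Rv1 with caffeine and 8.29 untreated. SLC38A2, a sodium-coupled glutamine and alanine transporter, had 12.67 in LNCaP with caffeine and 11.92 untreated, and 14.05 in 22Rv1 with caffeine and 13.17 untreated. For these 3 genes the caffeine signal was above the untreated one in both lines, with means of 0.98, 0.87 and 0.82 and adjusted p of 0.281, 0.25 and 0.218 by limma. The exchanger light chain SLC7A5 was not detected in LNCaP and had 5.34 in 22Rv1 with caffeine and 6.67 untreated. Its partner SLC3A2 was thus higher and SLC7A5 lower in the same 22Rv1 cells. The remaining transporters, SLC7A1, SLC38A1, SLC1A4, SLC1A5 and SLC43A1, differed by between -0.53 and 0.50 in the lines, although other probe sets of SLC38A1 reached -1.06 in LNCaP and 1.69 in 22Rv1.

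Of the serine and one-carbon enzymes, 0 of 5 detected in LNCaP were past 1 in either direction, with values between -0.27 and 0.27, and 1 of 6 was lower in 22Rv1. That gene was PSAT1, the aminotransferase of serine synthesis, with 11.17 in LNCaP with caffeine and 11.43 untreated, and 9.04 in 22Rv1 with caffeine and 10.67 untreated. Its other probe set gave 7.53 in 22Rv1 with caffeine and 9.39 untreated, so that both showed the lower signal in 22Rv1. PHGDH, which opens the pathway, had 10.67 in LNCaP with caffeine and 10.74 untreated, and 7.61 in 22Rv1 with caffeine and 7.91 untreated. PSPH, which ends it, had 8.92 in LNCaP with caffeine and 9.11 untreated, and 7.69 in 22Rv1 with caffeine and 8.06 untreated. All 3 enzymes of serine synthesis were therefore lower with caffeine in both lines, by amounts under 0.4 except for PSAT1 in 22Rv1 with the probe sets that represent them, while other probe sets of PSPH reached -0.71 in LNCaP and -0.84 in 22Rv1. By limma 0 of them were called, with PSAT1 alone at an unadjusted p under 0.05 (0.0344, adjusted p = 0.246).

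Of the other amino acid enzymes, CTH, which makes cysteine from cystathionine, had 6.00 in LNCaP with caffeine and 5.73 untreated, and 5.17 in 22Rv1 with caffeine and 3.96 untreated. With another probe set the CTH difference was 1.44 in LNCaP, in place of 0.28, and 1.76 in 22Rv1. That probe set was near the floor, at 3.74 in LNCaP and 2.30 in 22Rv1 untreated and at 5.18 and 4.06 with caffeine. Its decay was -1.14 in LNCaP and -1.69 in 22Rv1. PYCR1, the last enzyme of proline synthesis, had 9.74 in LNCaP with caffeine and 10.06 untreated, and 7.57 in 22Rv1 with caffeine and 8.43 untreated. CBS, which makes cystathionine, had 9.94 in LNCaP with caffeine and 10.28 untreated, and 8.62 in 22Rv1 with caffeine and 9.15 untreated. The enzymes on either side of cystathionine thus differed in sign in both lines. GOT1, the cytosolic aspartate aminotransferase, and ALDH18A1, which starts proline synthesis, differed by between -0.40 and 0.35.

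**Figure D2:**
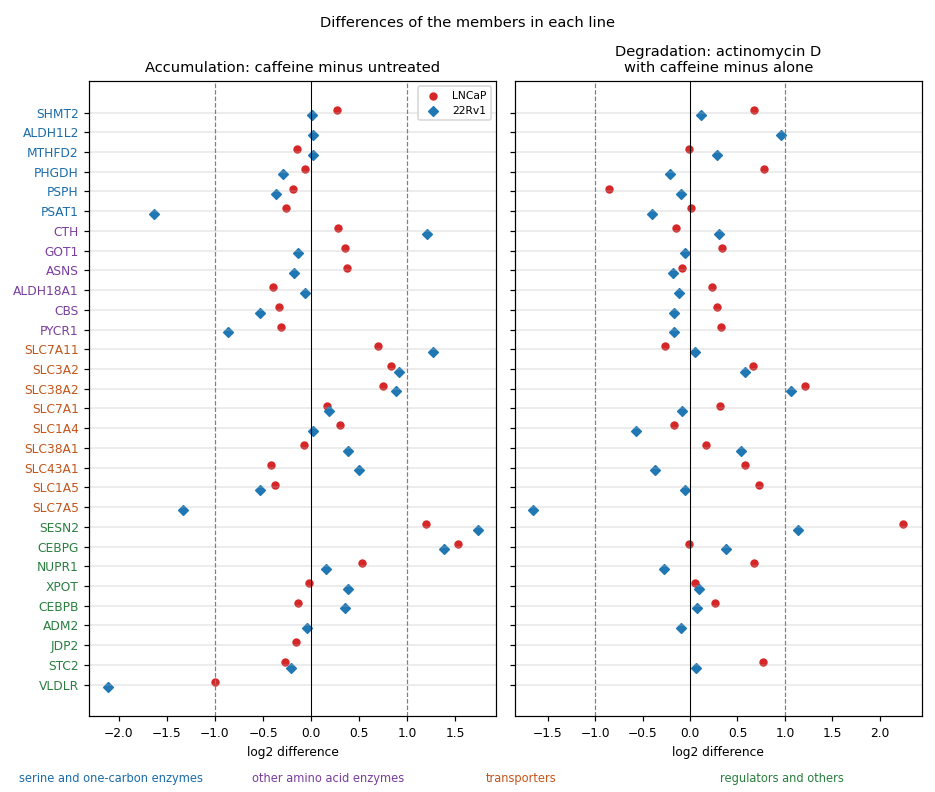
Log2 differences (x axis) of the genes in LNCaP (circles) and 22Rv1 (diamonds) for accumulation (left) and degradation (right), with 1 difference of 2 arrays per point, genes under the floor of 4 on both arrays left out and dashed lines at -1 and 1. SESN2 and CEBPG are past 1 in accumulation in both lines, SESN2 and SLC38A2 in degradation, and most enzymes lie near 0.

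Degradation compares cells with caffeine kept and withdrawn once transcription was blocked, and SESN2 and SLC38A2 were higher by at least 1 with caffeine kept in both lines. In LNCaP 2 of 25 detected genes were higher by at least 1 with caffeine kept (8.0%) and 0 were lower, against 5.32% and 3.17% of all detected genes, and in 22Rv1 2 of 28 were higher (7.14%) and 1 was lower (3.57%), against 3.16% and 1.21%. With 2 genes and 1 gene these shares say little about the whole list. The median of the genes was 0.28 in LNCaP and -0.05 in 22Rv1, beside 0.10 and -0.02 for all detected genes. By limma 0 of the 28 genes were called, 0% of all probe sets were called higher and 0% lower. An unadjusted p under 0.05 was found for 2 of the genes, beside 1712 of the 21453 probe sets.

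SESN2 had 6.24 in LNCaP after actinomycin D with caffeine and 3.99 after actinomycin D alone, and 4.55 in 22Rv1 with caffeine and 3.41 alone (adjusted p = 0.356 by limma). The signals after actinomycin D alone were under the floor in both lines, and with signals under 4 set to 4 the difference in 22Rv1 was 0.55. With the other probe set it was 0.76 in LNCaP and 0.45 in 22Rv1. SLC38A2 had 11.32 in LNCaP after actinomycin D with caffeine and 10.11 after actinomycin D alone, and 13.24 in 22Rv1 with caffeine and 12.18 alone (adjusted p = 0.410 by limma). All 3 probe sets of SLC38A2 gave a mean difference between 1.11 and 1.25. CEBPG, which led the accumulation, had 8.09 in LNCaP after actinomycin D with caffeine and 8.09 alone, and 8.57 in 22Rv1 with caffeine and 8.18 alone. The other probe set of CEBPG gave 0.21 in LNCaP and -0.96 in 22Rv1.

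In 22Rv1 SLC7A5 was lower with caffeine kept, at 5.0 after actinomycin D with caffeine and 6.65 after actinomycin D alone. ALDH1L2, a mitochondrial folate enzyme detected in 22Rv1 only, had 5.97 with caffeine and 5.01 alone. PSPH had 8.68 in LNCaP with caffeine and 9.53 alone, and 8.22 in 22Rv1 with caffeine and 8.32 alone. SHMT2, the mitochondrial serine hydroxymethyltransferase, had 11.99 in LNCaP with caffeine and 11.32 alone, and 13.27 in 22Rv1 with caffeine and 13.15 alone. SLC3A2 had 9.72 in LNCaP with caffeine and 9.06 alone, and 8.71 in 22Rv1 with caffeine and 8.13 alone. STC2 had 7.47 in LNCaP with caffeine and 6.70 alone, and 4.62 in 22Rv1 with caffeine and 4.55 alone. SLC3A2 was thus higher by 0.66 and 0.58 in the lines, while SHMT2 and STC2 differed by over 0.5 in LNCaP only, with no test of that contrast between lines. PHGDH was likewise at 10.96 with caffeine and 10.18 alone in LNCaP, and at 8.08 with caffeine and 8.30 alone in 22Rv1.

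The LNCaP array of actinomycin D with caffeine stands apart from the others. Its 18S rRNA control probe sets had a mean of 11.7, against 4.09 to 7.08 on the other 7 arrays, and it enters every LNCaP value of degradation and of loss with caffeine kept. Its part in those values was not tested. In 22Rv1, whose arrays had no such 18S value, the degradation of SLC38A2 was 1.06 and that of SESN2 was 0.55 with signals under 4 set to 4. The 24 poly-A control probe sets, from RNA added to the samples, had means of 7.32 to 7.97 on the actinomycin D arrays and of 6.18 to 7.06 on the others. Scaling the arrays to equal poly-A means moved all differences by 0.21 in LNCaP and 0.26 in 22Rv1 for accumulation, by 0.39 and 0.41 for degradation, by -1.14 and -0.77 for loss with caffeine kept and by -1.53 and -1.18 for decay. The differences after actinomycin D given here are therefore relative to the typical transcript and not absolute.

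The genes that fell once transcription was blocked and caffeine withdrawn were 3 regulators and 1 transporter. By limma 4 of the 28 genes fell in decay (actinomycin D alone minus caffeine) and 0 rose, with 6 of their 51 probe sets tested called lower, against 1.86% of all probe sets called lower and 0.475% higher. In LNCaP 7 of 27 detected genes were lower by at least 1 (25.9%) and 0 higher, against 11.9% and 4.67% of all detected genes. In 22Rv1 5 of 28 were lower (17.9%) and 2 higher (7.14%), against 10.5% and 3.16%. The median was -0.49 in LNCaP and 0.08 in 22Rv1, beside -0.09 and 0.03 for all detected genes. At an unadjusted p under 0.05 VLDLR was also lower (adjusted p = 0.194 by limma). Such an unadjusted p was found for 4663 of the 21453 probe sets in either direction.

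SESN2 fell to 3.99 in LNCaP and 3.41 in 22Rv1 after actinomycin D alone, against 7.33 and 7.05 in caffeine (mean difference -3.49, SE 0.36, adjusted p = 0.0264 by limma). Its other probe set differed by 0.15 in LNCaP and -0.67 in 22Rv1 and was not called. SLC38A2 fell to 10.11 in LNCaP and 12.18 in 22Rv1, against 12.67 and 14.05 in caffeine (-2.21, SE 0.27, adjusted p = 0.0302 by limma), and each of its 3 probe sets was called lower. CEBPB fell to 8.02 in LNCaP and 8.17 in 22Rv1, against 9.57 and 9.94 in caffeine (-1.66, SE 0.21, adjusted p = 0.0309 by limma). CEBPG fell to 8.09 in LNCaP and 8.18 in 22Rv1, against 9.27 and 9.51 in caffeine (-1.25, SE 0.20, adjusted p = 0.0444 by limma), while its other probe set was not called (-0.91, adjusted p = 0.224 by limma). For each of these genes both arrays of actinomycin D alone lay below both caffeine arrays. The adjusted p of CEBPB and CEBPG was over 0.05 in each fit that left out 1 of the 8 arrays (0.053 to 0.198 for CEBPB and 0.0675 to 0.213 for CEBPG). That of SESN2 and SLC38A2 stayed under 0.05 only without an untreated array (0.0453 and 0.0482) and was up to 0.18 and 0.185 without another array. The 4 calls were also lost with no cell line block, with no filter on low signals and with only the 4 arrays compared.

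**Figure D3:**
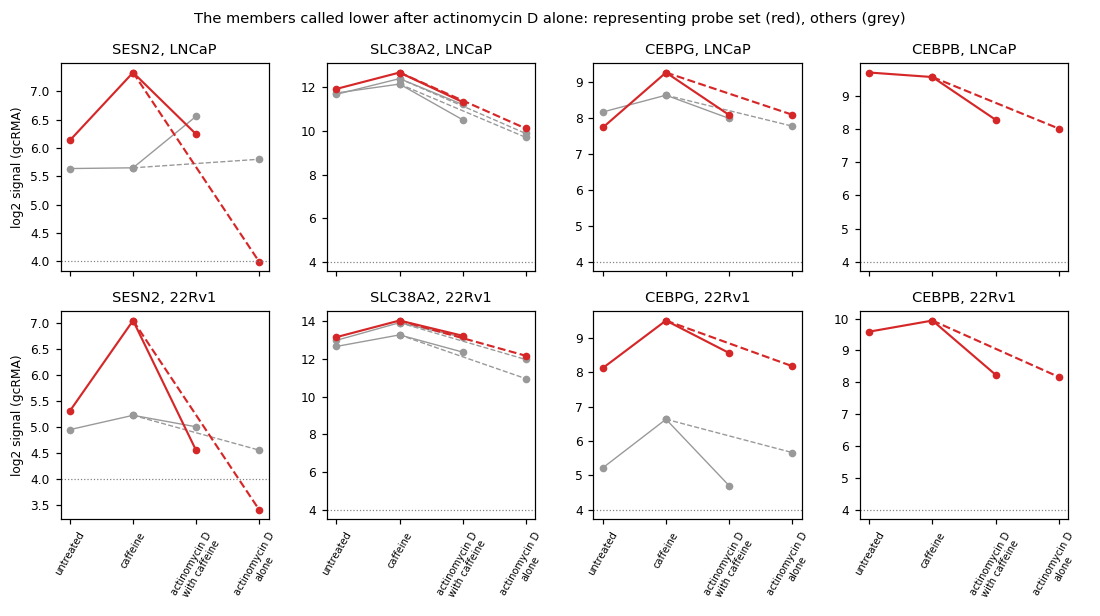
Log2 signals (y axis, gcRMA; scales differ between panels) of the 4 genes called lower in decay, in LNCaP (upper row) and 22Rv1 (lower row), with 1 point per array. Red is the probe set that represents the gene and grey its other probe sets, solid lines lead through caffeine to actinomycin D with caffeine, dashed lines to actinomycin D alone, and the dotted line is the floor of 4. SESN2 drops to 3.99 in LNCaP and 3.41 in 22Rv1 with the red probe set while its grey one stays between 4.56 and 6.56, and all probe sets of SLC38A2 run together.

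With caffeine kept, limma called 0 of the 28 genes and 0% of all probe sets in either direction. At an unadjusted p under 0.05, 4 genes were lower (SLC38A2, SESN2, CEBPG and CEBPB), and 2628 of the 21453 probe sets had such a p in either direction. In LNCaP 7 of 27 detected genes were lower by at least 1 (25.9%; 4 with each gene's probe sets averaged) and 0 higher, against 8.54% and 4.69% of all detected genes, and in 22Rv1 2 of 27 were lower (7.41%) and 0 higher, against 7.14% and 1.93%. CEBPB had 8.28 in LNCaP after actinomycin D with caffeine and 9.57 in caffeine, and 8.24 in 22Rv1 after actinomycin D with caffeine and 9.94 in caffeine (adjusted p = 0.116 by limma). The signal of CEBPB was therefore about as low with caffeine kept as without it, whereas SLC38A2 differed by -1.35 in LNCaP and -0.81 in 22Rv1 with caffeine kept and by -2.56 and -1.87 without it. The median loss with caffeine kept was -0.21 in LNCaP and 0.07 in 22Rv1, beside -0.00 and 0.02 for all detected genes.

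Further genes were past 1 after actinomycin D in a single line, with no test of the difference between the lines. JDP2, a repressor of the AP-1 family, had 3.63 after actinomycin D with caffeine and 3.50 alone, against 5.61 in caffeine, and stayed between 3.49 and 3.52 in 22Rv1. VLDLR had 3.62 in LNCaP after actinomycin D with caffeine and 3.01 alone, against 5.24 in caffeine, while in 22Rv1 it was under the floor on all of these arrays, with 3.78 after actinomycin D with caffeine and 3.68 alone. STC2 had 6.70 in LNCaP after actinomycin D alone against 7.74 in caffeine, and its other probe set differed by -2.27 there. SLC7A11 had 8.81 in LNCaP after actinomycin D with caffeine against 9.95 in caffeine. Another SLC7A11 probe set differed by -0.47 in that LNCaP comparison, and in 22Rv1 by 2.84 with caffeine kept and 2.36 in decay, where the representing one gave -0.14 and -0.19. SLC3A2 had 8.13 in 22Rv1 after actinomycin D alone against 9.20 in caffeine. In 22Rv1 PYCR1 and SLC7A5 had higher signals in actinomycin D alone, at 8.62 against 7.57 in caffeine for PYCR1 and at 6.65 against 5.34 in caffeine for SLC7A5, and both had been lower in caffeine than untreated.

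**Figure D4:**
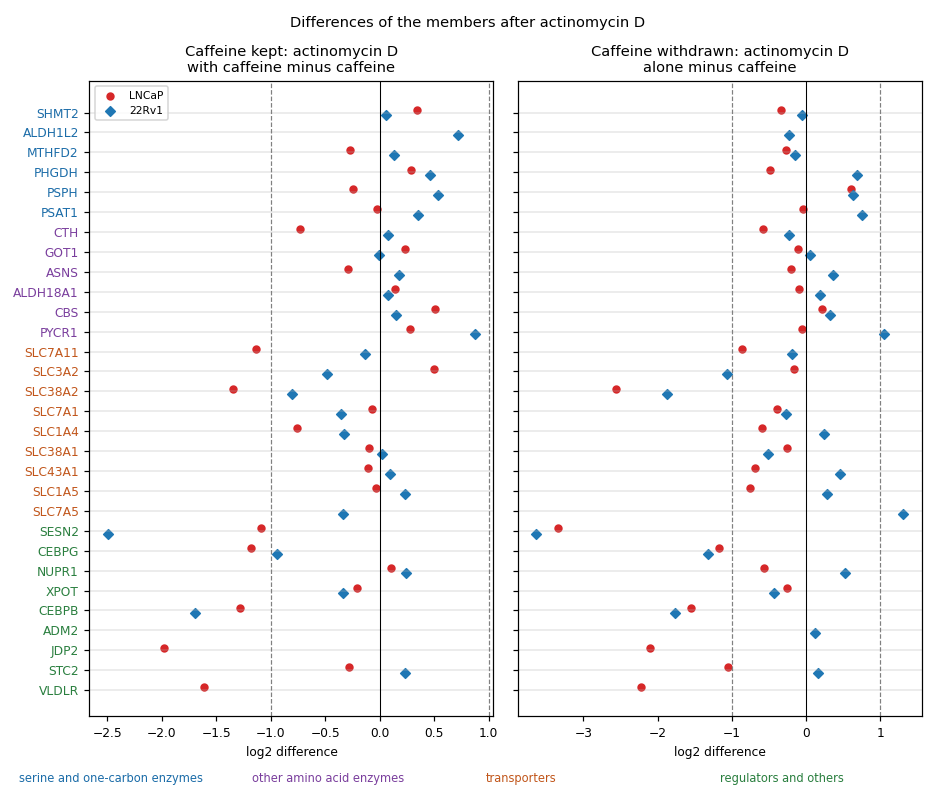
Log2 differences (x axis; the panels have different ranges) of the genes in LNCaP (circles) and 22Rv1 (diamonds) for loss with caffeine kept (left) and decay (right), with 1 difference of 2 arrays per point and dashed lines at -1 and 1. In decay SESN2, SLC38A2, CEBPB and CEBPG are below -1 in both lines, JDP2, VLDLR and STC2 in LNCaP, and PYCR1 and SLC7A5 above 1 in 22Rv1.

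Over all comparisons, 13 of the 30 detected genes were past 1 in at least 1 line, 17 were under 1 in every comparison and 7 of these under 0.5 (ASNS, MTHFD2, SLC7A1, ALDH18A1, GOT1, XPOT and ADM2), by the probe sets that represent them. The same count was not made over all detected genes, so these counts cannot be read as many or few. Other probe sets went past 1 for some of the 17, reaching 2.59 for SLC7A1 and 1.95 for SLC38A1 in LNCaP decay and -1.24 for PSPH in LNCaP degradation, and XPOT reached -0.94 in 22Rv1 accumulation. The values of the lines can be set side by side. Across 26 genes detected in both lines Pearson's r of the accumulation in LNCaP and 22Rv1 was 0.79, and across 10178 genes of the array it was 0.59. For decay r was 0.83 (25 genes), beside 0.64 for all genes, for degradation 0.54 beside 0.30, and for loss with caffeine kept 0.66 beside 0.39. Agreement in sign was not closer for these genes in every comparison. In accumulation 19 of 26 genes had the same sign in both lines, beside 7113 of 10178 of all genes. In decay these were 14 of 25 beside 7161 of 10168, and in degradation 11 of 25 beside 5641 of 10058. In loss with caffeine kept they were 14 of 25 beside 6302 of 10151. The correlations are across genes, which are not independent replicates, and arrays of a line share their caffeine and wash steps. By the probe sets that represent them, 2 genes were past 1 in both lines in accumulation (CEBPG and SESN2, higher). In degradation there were 2 (SESN2 and SLC38A2, higher), in loss with caffeine kept 2 (SESN2 and CEBPB, lower) and in decay 4 (lower). Of all genes detected in both lines, 2.53% were higher in both in accumulation and 1.13% in degradation. In loss with caffeine kept 2.22% were lower in both, and in decay 5.92%. Another probe set of CTH, near the floor, was also past 1 in both lines in accumulation (higher), loss with caffeine kept and decay (lower).

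For 10 of the 12 detected enzymes (83.3%) the untreated lines differed by more than any accumulation, degradation, loss or decay within a line. Other pairs of treatments were not compared. The same held for 42.8% of 11814 detected genes. No count was made for transporters or regulators, so the share is not that of the whole list. SLC7A1 was like these enzymes (1.86 between untreated lines, at most 0.38 in a comparison). SLC38A2 (-1.25, beside -2.56 in LNCaP decay) and SESN2 (0.82, beside -3.64 in 22Rv1 decay) were not. The count holds for the probe sets that represent the genes, and none was made with the others. With another probe set untreated ALDH18A1 was at 9.89 in LNCaP and 10.22 in 22Rv1, beside a decay of 0.63 in 22Rv1. Another of MTHFD2 was at 5.29 and 5.68, beside a difference of 0.63 in 22Rv1 for loss with caffeine kept. Of 30 genes detected, LNCaP had 10 higher by at least 1 and 4 lower, while of all detected genes 19.5% were higher and 18.5% lower in LNCaP. The median difference (LNCaP minus 22Rv1) was 0.64, beside 0.02 for all genes, and its median size was 0.89, beside 0.73. PHGDH had 10.74 in LNCaP and 7.91 in 22Rv1, PYCR1 10.06 and 8.43, CBS 10.28 and 9.15 and PSPH 9.11 and 8.06. CTH had 5.73 in LNCaP and 3.96, just under the floor, in 22Rv1. PSAT1 was at 11.43 in LNCaP and 10.67 in 22Rv1. All 3 enzymes of serine synthesis, and both of those that lead through cystathionine to cysteine, thus had the higher signal in LNCaP. SHMT2 was at 11.38 in LNCaP and 13.20 in 22Rv1, MTHFD2, a mitochondrial folate enzyme, at 11.22 and 11.58, and ALDH1L2 at 2.42, under the floor, and 5.23.

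Transporters differed in both directions. SLC7A11 had 9.26 in LNCaP and 6.63 in 22Rv1, the cationic amino acid transporter SLC7A1 had 11.46 and 9.60, and SLC43A1, a leucine transporter, had 8.61 and 6.79. SLC7A5, the large neutral amino acid transporter, had 3.29 in LNCaP and 6.67 in 22Rv1, and SLC38A2 had 11.92 and 13.17. SLC3A2, the heavy chain that both SLC7A11 and SLC7A5 bind, had 8.39 in LNCaP and 8.29 in 22Rv1, a difference of 0.10, beside 2.63 for SLC7A11. SLC7A5 was under the floor in LNCaP, and with signals under 4 set to 4 its difference was -2.67. Among the others STC2 had 8.01 in LNCaP and 4.60 in 22Rv1 and JDP2 5.77 and 3.52, which is under the floor. With signals under 4 set to 4 the JDP2 difference was 1.77. With 1 array a line these differences have no test, and they hold the genotype and history of each line together.

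**Figure D5:**
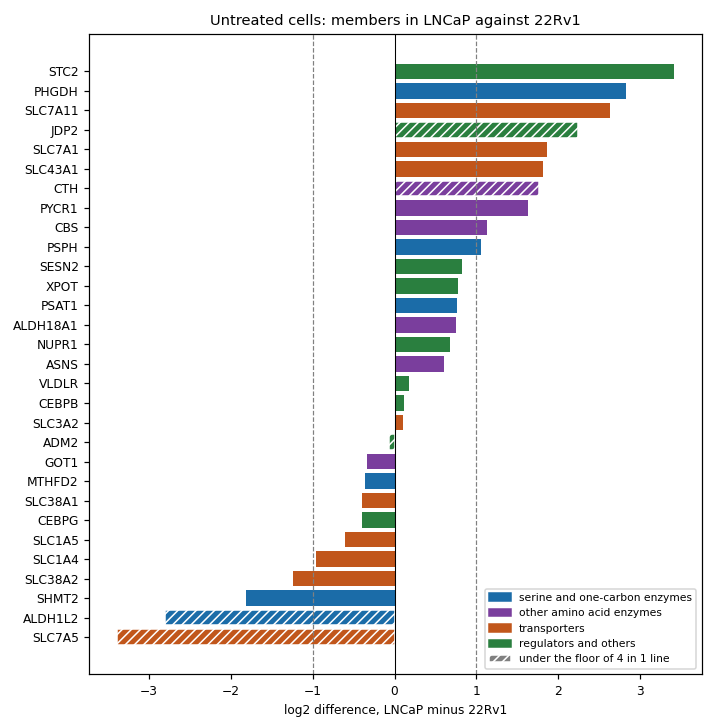
Log2 difference between the untreated lines (x axis, LNCaP minus 22Rv1) of the 30 detected genes, with bars coloured by role, hatched where the signal of 1 line was under the floor of 4, and dashed lines at -1 and 1. STC2 (3.41), PHGDH (2.83) and SLC7A11 (2.63) are highest in LNCaP relative to 22Rv1, and SHMT2 (-1.82) is lower in LNCaP. The hatched bars of SLC7A5 and ALDH1L2 rest on LNCaP signals under the floor and are -2.67 and -1.23 with signals under 4 set to 4. Those of JDP2 and CTH rest on 22Rv1 signals under the floor and are 1.77 and 1.73 when set so.

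The rest of the pathway gives the setting. A list of 16 further genes (the transcription factors ATF4, ATF5, ATF3 and DDIT3, the target genes TRIB3, CHAC1 and DDIT4, the eIF2 phosphatase subunits PPP1R15A and PPP1R15B, the kinases EIF2AK1 to EIF2AK4, EIF2S1, GCN1 and IMPACT) had 15 members detected and tested. In accumulation 4 of 15 were higher and 2 lower by at least 1 in LNCaP, against 5.19% and 3.70% of all detected genes. In 22Rv1 5 were higher and 3 lower, against 8.41% and 6.12%. In degradation 3 were higher and 0 lower in each line, against 5.32% and 3.17% in LNCaP and 3.16% and 1.21% in 22Rv1. By limma 1 of them rose in accumulation (PPP1R15A), against 0.0420% of all probe sets. In decay 3 fell (DDIT3, PPP1R15A and DDIT4), against 1.86% of all probe sets, and 0 were called in degradation or in loss with caffeine kept. The counts of this list use 1 probe set a gene. EIF2AK4, counted as lower in accumulation in both lines, had a mean of -1.40 over the lines. Another probe set of EIF2AK4 gave 2.70 (adjusted p = 0.0691 by limma). Probe sets of EIF2S1 also differed, at 0.22 for the one counted and -1.30 for another. ATF4 itself had 14.08 in LNCaP with caffeine and 12.26 untreated. In 22Rv1 it had 13.83 with caffeine and 12.16 untreated (adjusted p = 0.0691 by limma over both lines). The higher signal of the ATF4 mRNA thus stood beside medians of -0.07 and 0.02 for the accumulation of the amino acid supply genes in the same cells.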

How the data were processed

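The authors hybridised total RNA of 8 cultures to Affymetrix U133 Plus 2.0 arrays. They deposited log2 signals per probe set after background correction, quantile normalization and summarization with gcRMA, and no version of RMA or GCRMA stands in the submitters' processing notes. Quantile normalization hides a change shared by all mRNAs. No further normalization was applied. Arrays carry no read depth, so the number of arrays (1 per line and treatment) limits the precision. With the line in the model, p-values rest on how far the lines disagree in their responses, pooled over the treatments. They do not measure a spread between repeat cultures, since there were none.

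Of 54675 probe sets, 41097 had 1 gene symbol in the platform annotation, 1801 several and 11777 none, and 41043 of the first had their gene in the RefSeq table, which changed 0 symbols. Detection in a comparison was a signal of at least 4 on 1 of its arrays, and the cut-off was 1 on the log2 scale. Treatment effects came from limma 3.58.1 (R 4.3.3), in an additive model of line and treatment (3 residual degrees of freedom, prior 2.93) over probe sets averaging 4 or more, all of which entered the Benjamini-Hochberg adjustment. The rest used python 3.11.15, numpy 2.4.6, pandas 2.3.3 and matplotlib 3.10.9.

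Values on the arrays are given for genes that limma called, genes past 1 the same way in both lines, and the 3 of each role with the largest mean accumulation or degradation. Further members were named beside them after their values were seen. The members, lists and tests were chosen with earlier results of these data known. Alternatives were fits with no cell line block, other filters, a variance trend, robust variances, only the arrays compared, poly-A scaling, each array left out, the mean of all probe sets, any probe set called, signals under 4 set to 4, and a cut-off of 1.3.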

Additional observations from a re-analysis of the deposited data

Results flagged for a closer look

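NUPR1, a stress protein gene, moved opposite ways in decay. In LNCaP its signal was 11.27 after actinomycin D alone, against 11.84 in caffeine, a difference of -0.57. In 22Rv1 it was 11.30 after actinomycin D alone, against 10.78 in caffeine, a difference of 0.52. The opposite signs in the lines, each of at least 0.5, drew attention to it, and that difference was not tested, with 1 array per group.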

How the results depend on the processing

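By limma the count of members lower in decay was 4 as reported, 0 with no cell line block, with no filter and with only the 4 arrays compared, 25 with poly-A scaling and between 0 and 2 with 1 array left out. It was 2 without either untreated array and 0 without any of the other 6. The adjusted p over all alternatives ranged from 0.000561 to 0.387 for SESN2, from 0.000855 to 0.954 for SLC38A2, from 0.000762 to 0.356 for CEBPB and from 0.000914 to 0.516 for CEBPG, with no change of sign. Members called higher in accumulation were 0, and 1 with a mean of at least 6, with a variance trend and with poly-A scaling. Members called lower in loss with caffeine kept were 0, and 15 with poly-A scaling.

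Poly-A scaling changed the counts past 1 to 8 higher in degradation, 20 lower in loss with caffeine kept and 26 lower in decay in LNCaP, and in 22Rv1 to 9 lower in loss, 16 lower in decay and 0 higher in decay. With the mean of all probe sets, 0 members were higher in accumulation and 4 lower in loss in LNCaP, and 1 was higher in degradation in 22Rv1, which was also the count with signals under 4 set to 4. A cut-off of 1.3 left 1 member higher in accumulation and 1 in degradation in LNCaP, and 2 in accumulation and 0 in degradation in 22Rv1. The cause of these changes was not tested, other than the shift that poly-A scaling gives to all differences. The cell line term already sets the treatments against each other within a line, and the labels carry no replicate numbers for a further block.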
